A study of Mus musculus with 6 samples.

Results

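The 10 genes described here are the stem cell transcription factor heptad (*Runx1*, *Erg*, *Fli1*, *Gata2*, *Lyl1*, *Lmo2* and *Tal1*) and the partners *Etv6*, *Mecom* and *Myb*, chosen by name from the 54532 genes of an RNA-seq table. LSK cells carry Sca1 and c-Kit but no lineage markers and include the hematopoietic stem and progenitor cells of the bone marrow. They were sorted from C57BL/6 mice. The control group (CTRL, 3 libraries) was Myh9fl/fl without cre, and the *Myh9*-deficient group (cKO, 3 libraries) was Myh9fl/fl;Mx1-cre, in which cre is driven by an interferon-inducible promoter that is not limited to blood cells. Controls were littermates, and mice were genotyped at 4 to 5 weeks of age. Both groups received poly I:C at 5 mg/kg, in 2 doses by the sample descriptions (the study's methods give another number), and cells were taken on day 4 after the first dose, 100000 per library. How many mice each library came from is not given in the sources used here, so p-values measure the spread between these libraries, which may be technical.

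The heptad proteins bind together at many enhancers of blood stem and progenitor cells. RUNX1 is a Runt-domain factor that pairs with CBFB, ERG and FLI1 belong to the ETS family, and GATA2 is a zinc finger factor. TAL1 and LYL1 are related basic helix-loop-helix proteins that bind DNA with E proteins such as TCF3, and LMO2 is a bridging protein that joins them to LDB1 and to GATA factors. ETV6 is an ETS-family repressor needed by adult stem cells, MECOM (EVI1) is a zinc finger factor of the most immature stem cells, and MYB controls proliferation and differentiation of progenitors.

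Among the 10 genes, the largest differences as a percentage of the control level were a lower *Runx1* and a higher *Mecom*. *Mecom* was scarce, with 86 to 134 reads per library, and was not tested. On the log2 scale used for the tests, its difference was smaller than those of *Etv6*, *Fli1* and *Gata2*. The promoters of *Runx1*, *Gata2* and *Etv6* are shown first because these genes had the largest falls and the largest rise of those tested. *Runx1* is transcribed from a distal and a proximal promoter far apart on chromosome 16, and values per gene do not separate their transcripts. Each sequence was taken from RefSeq (GRCm38.p6) and ends at the base before the annotated start. Capitals mark the ETS core GGAA and the RUNX core TGTGG, each on either strand (TTCC and CCACA on the other), with touching matches joined.
*Runx1* proximal promoter, chr16:92697330-92697579, minus strand: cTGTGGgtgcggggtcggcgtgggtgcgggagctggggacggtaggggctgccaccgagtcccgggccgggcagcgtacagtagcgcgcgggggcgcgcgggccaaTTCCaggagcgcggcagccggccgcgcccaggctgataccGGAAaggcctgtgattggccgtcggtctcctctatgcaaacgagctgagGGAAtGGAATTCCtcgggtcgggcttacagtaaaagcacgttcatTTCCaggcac
*Runx1* distal promoter, chr16:92826150-92826324, minus strand: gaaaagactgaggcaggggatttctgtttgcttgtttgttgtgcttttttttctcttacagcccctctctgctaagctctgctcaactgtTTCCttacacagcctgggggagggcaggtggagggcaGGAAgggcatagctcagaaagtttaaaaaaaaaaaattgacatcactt
*Gata2* promoter, chr6:88193641-88193890, plus strand: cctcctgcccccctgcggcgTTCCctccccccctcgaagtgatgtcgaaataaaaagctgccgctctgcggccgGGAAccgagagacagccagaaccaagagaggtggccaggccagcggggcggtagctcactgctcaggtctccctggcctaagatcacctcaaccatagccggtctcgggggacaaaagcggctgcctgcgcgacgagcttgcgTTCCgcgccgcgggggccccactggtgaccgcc
*Etv6* promoter, chr6:134035450-134035699, plus strand: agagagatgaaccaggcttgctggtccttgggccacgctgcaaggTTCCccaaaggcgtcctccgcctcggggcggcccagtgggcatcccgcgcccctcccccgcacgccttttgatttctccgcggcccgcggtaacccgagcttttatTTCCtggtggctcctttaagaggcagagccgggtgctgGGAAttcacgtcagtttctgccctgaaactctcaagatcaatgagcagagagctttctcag
The proximal *Runx1* sequence held 6 ETS cores and 1 RUNX core at a GC content of 67.6%. The distal sequence was cut to the 175 bases upstream of the first annotated exon, and held 2 ETS cores at a GC content of 45.1%. *Gata2* and *Etv6* each held 3 ETS cores, at a GC content of 67.2% and 60.4%, and no RUNX core.

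Such short motifs are common in promoters. Of 32851 RefSeq promoter windows of 250 bases, 93.4% held GGAA, 49.3% TGTGG, 22.6% the GATA core GATAA, 66.2% the E-box CANNTG and 39.1% the MYB core AACTG, which overlaps an E-box where a C precedes it. RefSeq entries were found for 8 of the 10 genes, with 14 windows in all (*Fli1* and *Lmo2* had none). GGAA was present in 13 of the 14 windows, and each of the other motifs in 4 of 14. These matches describe letters in a window and not binding.

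The values were FPKM, reads scaled by gene length and library size, so levels can be compared between genes. Libraries held 17571544 to 19894562 reads on genes in CTRL and 17993534 to 18565266 in cKO. *Myh9*, the targeted gene, fell from 22.5 ± 0.495 FPKM to 18.7 ± 1.18 (SD, n = 3 each), a log2 fold change of -0.26 with an adjusted p of 0.00642 (limma), with no overlap between groups. Of the markers that define the sort, *Ly6a* (Sca1) measured 95.4 FPKM in CTRL and 89.5 in cKO, and *Kit* measured 23.9 and 21.5. The summed level of 7 mature lineage markers was 4.64 to 5.55 FPKM in CTRL and 6.79 to 7.65 in cKO, with *Cd3e* at 0 in all 3 CTRL libraries.

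The 10 genes spanned a wide range of levels in LSK cells. In CTRL the order of mean level was *Lmo2*, *Lyl1*, *Myb*, *Gata2*, *Etv6*, *Erg*, *Tal1*, *Fli1*, *Runx1* and *Mecom*, from 294 down to 0.416 FPKM. In cKO the order was the same except that *Erg* stood above *Etv6*. In each group, the libraries of any neighbouring pair in the order did not overlap. The summed level of the 7 heptad genes was 544 to 556 FPKM in CTRL and 563 to 584 in cKO, and *Lmo2* made up 52.6% to 53.7% of it in CTRL and 56.1% to 57.1% in cKO. *Runx1* made up 1.44% to 1.59% in CTRL and 0.909% to 1.01% in cKO.

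**Figure D1:**
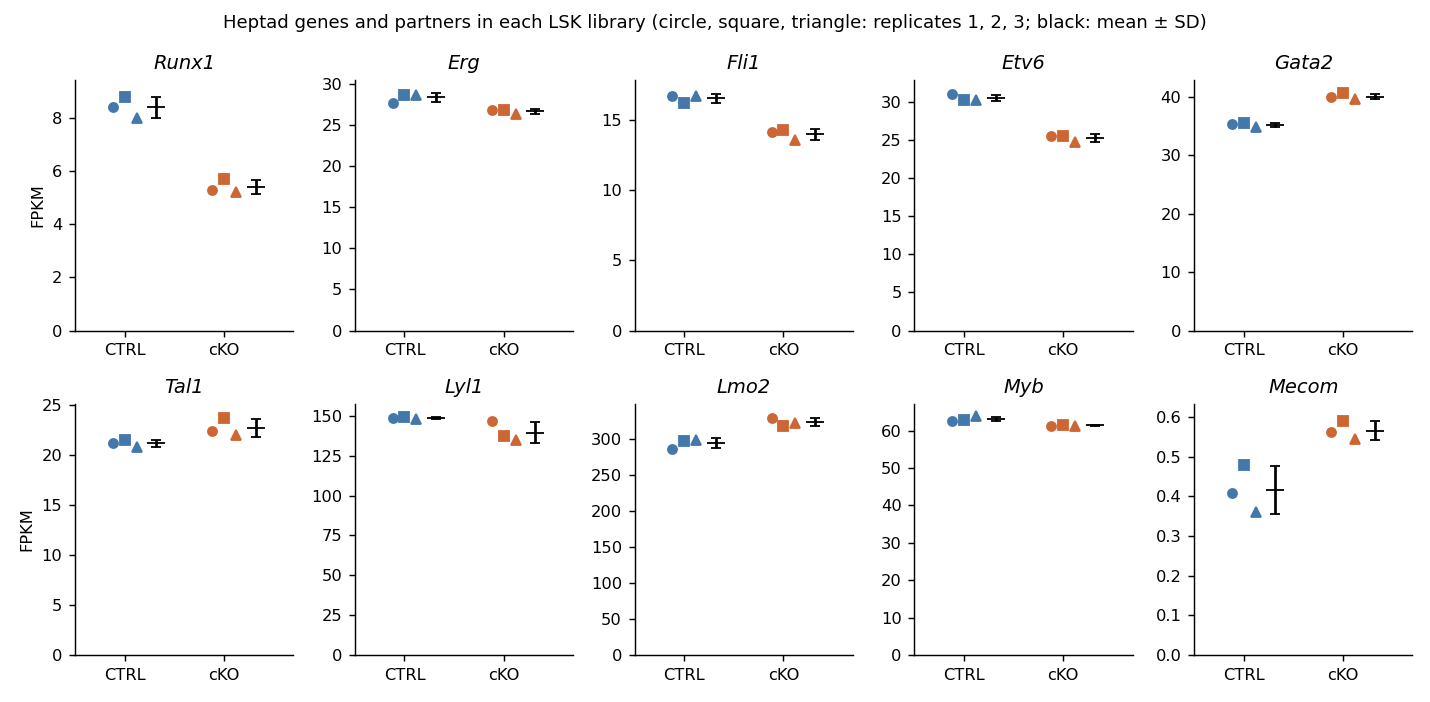
FPKM (vertical axes, starting at 0) of each of the 10 genes in the 3 CTRL and 3 cKO libraries, with replicates as separate symbols and the mean ± SD in black. The groups do not overlap in any panel, and the separation is widest, relative to the level, in *Runx1* (8.01 to 8.82 against 5.23 to 5.70 FPKM).

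Changes were tested with limma on log2(FPKM + 1) over the 11552 genes that averaged 1 FPKM or more, and a gene was called at a Benjamini-Hochberg adjusted p under 0.05 over all of these. Of the 9 genes tested (*Mecom* was below the limit), 5 were called, 2 higher (*Gata2* and *Lmo2*) and 3 lower (*Runx1*, *Fli1* and *Etv6*). Over all genes tested, 40.5% were called, 19.9% higher and 20.6% lower. The groups did not overlap in any of the 9 genes, 3 higher and 6 lower in cKO, and did not overlap in 54.0% of all genes tested. The median size of the log2 fold change was 0.14 in the 9 genes, 0.15 in all genes tested and 0.28 in all genes called. The study itself names *Runx1*, *Etv6* and *Erg* as lower from these libraries, so their direction here is not independent evidence. Unlike in the study's list, *Erg* was not called here (adjusted p = 0.0555, limma). Fewer cells of a type and less RNA per cell cannot be told apart in such bulk libraries.

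**Figure D2:**
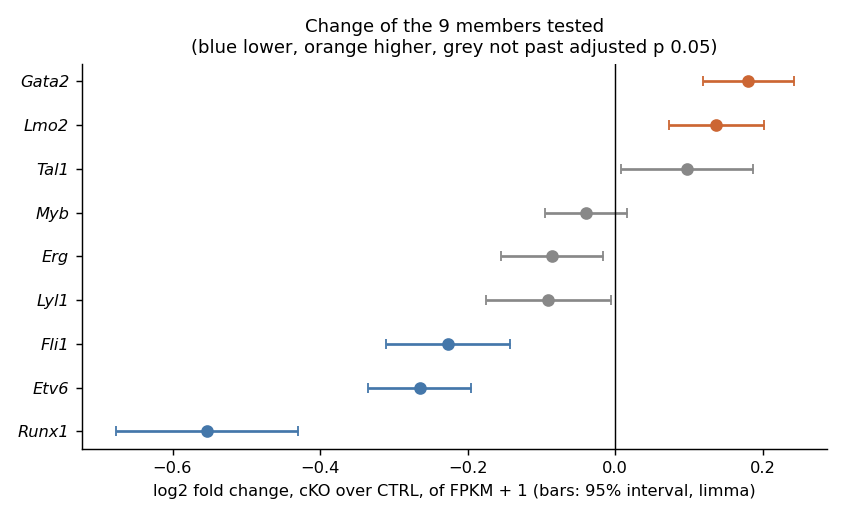
Log2 fold change (cKO over CTRL, horizontal axis, on log2(FPKM + 1)) of the 9 genes tested, with 95% intervals from limma. *Runx1* lies farthest from 0 at -0.55, *Etv6* and *Fli1* follow, and *Lmo2* and *Gata2* lie on the other side.

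*Runx1* (ENSMUSG00000022952, chromosome 16 from 92601466 to 92826149, minus strand, mm10) measured 8.41, 8.82 and 8.01 FPKM in CTRL and 5.31, 5.70 and 5.23 FPKM in cKO. Every cKO library lay well below every CTRL library. The mean fell from 8.41 ± 0.406 to 5.41 ± 0.252 FPKM (SD, n = 3 each), a change of -35.6%, and the log2 fold change was -0.55 (95% interval -0.68 to -0.43, adjusted p = 3.8e-04, limma). The call held in all 17 alternative fits, where the log2 fold change ranged from -0.63 to -0.46. An annotated antisense gene, *Gm26626*, shares 106 bases (0.881%) of the *Runx1* exons and measured 0.0639 FPKM in CTRL and 0.294 in cKO.

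The ETS genes of the set were all lower in cKO, 2 of the 3 past the threshold. *Etv6* (ENSMUSG00000030199, chromosome 6 from 134035700 to 134270158, plus strand) measured 31.0, 30.3 and 30.3 FPKM in CTRL and 25.6, 25.5 and 24.7 FPKM in cKO. Its mean fell from 30.5 ± 0.417 to 25.2 ± 0.492 FPKM (n = 3 each), by a log2 fold change of -0.27 (95% interval -0.34 to -0.19, adjusted p = 7.5e-04, limma). The cKO libraries of *Etv6* were close together and all below the CTRL libraries.

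*Fli1* (ENSMUSG00000016087, chromosome 9 from 32422204 to 32542861, minus strand), known as a driver of megakaryocyte genes, measured 16.7, 16.2 and 16.7 FPKM in CTRL and 14.1, 14.3 and 13.5 FPKM in cKO. The 3 cKO libraries were again the lowest. Its mean fell from 16.5 ± 0.314 to 14.0 ± 0.380 FPKM (log2 fold change -0.23, 95% interval -0.31 to -0.14, adjusted p = 0.00301, limma). The calls of *Etv6* and *Fli1* held in all 17 alternative fits.

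*Erg* (ENSMUSG00000040732, chromosome 16 from 95359169 to 95586593, minus strand), which adult stem cells need for self-renewal, measured 27.7, 28.7 and 28.7 FPKM in CTRL and 26.9, 26.8 and 26.4 FPKM in cKO. The groups did not overlap, but the gap between them was smaller than 1 FPKM. The log2 fold change was -0.086 (95% interval -0.16 to -0.016) and did not pass the threshold (adjusted p = 0.0555, limma). It passed in 3 of 17 alternative fits, with an adjusted p of 0.0490 over genes averaging 5 FPKM or more, 0.0308 after quantile normalization and 0.0313 with each library brought to the same sum.

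*Gata2* (ENSMUSG00000015053, chromosome 6 from 88193891 to 88207032, plus strand), a regulator of stem cell expansion and of early mast cell and megakaryocyte fates, measured 35.3, 35.4 and 34.9 FPKM in CTRL and 39.9, 40.6 and 39.6 FPKM in cKO. The libraries within each group were close together and the groups were well apart. The mean rose from 35.2 ± 0.313 to 40.0 ± 0.489 FPKM (n = 3 each), a change of 13.7%, with a log2 fold change of 0.18 (95% interval 0.12 to 0.24, adjusted p = 0.00214, limma). The call held in all 17 alternative fits, between 0.14 and 0.24 on the log2 scale.

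*Lmo2* (ENSMUSG00000032698, chromosome 2 from 103957986 to 103981878, plus strand) was the most abundant of the 10 genes, with 286, 297 and 298 FPKM in CTRL and 329, 318 and 322 FPKM in cKO. All cKO libraries were above all CTRL libraries. The mean rose from 294 ± 6.83 FPKM to 323 ± 5.77 (log2 fold change 0.14, 95% interval 0.073 to 0.20, adjusted p = 0.00781, limma). The call was lost after quantile normalization, where the log2 fold change was 0.047 (adjusted p = 0.265), and held in the 16 other fits.

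The paired helix-loop-helix genes *Tal1* and *Lyl1* lay on opposite sides, neither past the threshold. *Tal1* (ENSMUSG00000028717, chromosome 4 from 115056426 to 115071755, plus strand), also a master regulator of erythroid cells, measured 21.2, 21.4 and 20.8 FPKM in CTRL and 22.4, 23.7 and 22.0 FPKM in cKO. The cKO libraries were the higher ones, by less than 1 FPKM at the nearest point. The log2 fold change was 0.097 (95% interval 0.0077 to 0.19, adjusted p = 0.0806, limma), and passed in 3 of 17 alternative fits, with an adjusted p of 0.0281 by voom on the reads behind the values, 0.0298 by voom on genes with at least 10 reads and 0.0279 with GC and length trends removed.

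*Lyl1* (ENSMUSG00000034041, chromosome 8 from 84701457 to 84704715, plus strand) measured 148, 149 and 148 FPKM in CTRL and 147, 137 and 135 FPKM in cKO. The first cKO library lay next to the CTRL libraries and the other 2 lay lower. The log2 fold change was -0.090 (95% interval -0.17 to -0.0062, adjusted p = 0.0835, limma). Without cKO replicate 1 it was -0.13 (adjusted p = 0.0172), with GC and length trends removed -0.17 (adjusted p = 0.00681), and the adjusted p was 0.0455 after quantile normalization and 0.0394 with each library brought to the same sum.

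*Myb* (ENSMUSG00000019982, chromosome 10 from 21124935 to 21160984, minus strand) differed least. It measured 62.6, 63.0 and 63.8 FPKM in CTRL and 61.3, 61.5 and 61.4 FPKM in cKO, narrow groups that lay about 1 FPKM apart at the nearest point. The log2 fold change was -0.039 (95% interval -0.094 to 0.016, adjusted p = 0.221, limma). It was -0.078 after quantile normalization (adjusted p = 0.0372) and 0.038, in the other direction, with GC and length trends removed (adjusted p = 0.261). The antisense gene *Gm26577* shares 559 bases (6.26%) of the *Myb* exons and was below 0.2 FPKM in mean in both groups.

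*Mecom* (ENSMUSG00000027684, chromosome 3 from 29951296 to 30548008, minus strand) was the scarcest of the 10, with 0.409, 0.479 and 0.361 FPKM in CTRL (101, 105 and 86 reads) and 0.563, 0.591 and 0.545 FPKM in cKO (131, 134 and 126 reads). All cKO libraries lay above all CTRL libraries. The mean was 0.416 ± 0.0598 FPKM in CTRL and 0.566 ± 0.0235 in cKO, a difference of 36.1%. It lay below the limit of 1 FPKM and was not tested. With no limit on low values the log2 fold change on log2(FPKM + 1) was 0.15 (adjusted p = 0.140), and with voom on the reads of 13944 genes averaging 10 reads or more, of which 41.9% were called, it was 0.48 (standard error 0.16, adjusted p = 0.0207).

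Ratios of 2 genes within a library do not depend on how that library was scaled, and were compared for 8 pairs by an exact permutation test, in which 3 libraries against 3 cannot give a p below 0.1. The groups did not overlap in 7 of the 8 pairs (p = 0.1 each, exact permutation test, two-sided, adjusted p = 0.114 over the pairs). Single genes did not overlap in 54.0% of all genes tested, and the share over other pairs was not computed. Each pair holds a heptad or partner gene whose groups did not overlap by itself, so this count adds little. *Runx1* to its partner *Cbfb* went from 0.172 ± 0.00835 in CTRL to 0.114 ± 0.00474 in cKO, a difference of -0.60 on the log2 scale. *Cbfb* itself measured 48.9 and 47.6 FPKM, with overlapping groups. *Runx1* to *Gata2* went from 0.239 ± 0.00960 to 0.135 ± 0.00462, the largest drop in a ratio (-0.82), and *Myb* to *Runx1* from 7.52 ± 0.419 to 11.4 ± 0.501 (0.60). These ratios share *Runx1*, so they are not separate results.

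Between the related genes, *Fli1* to *Erg* was 0.603, 0.563 and 0.582 in CTRL and 0.525, 0.532 and 0.514 in cKO (log2 difference -0.15). *Tal1* to *Lyl1* was 0.143, 0.144 and 0.140 in CTRL and 0.152, 0.173 and 0.163 in cKO (0.19). *Gata2* to *Gata1*, the 2 GATA factors that replace one another at shared sites as erythroid and megakaryocyte cells form, was 1.08, 1.05 and 1.07 in CTRL and 0.945, 0.932 and 0.956 in cKO (-0.18). *Gata2* was thus the higher of the GATA pair in every CTRL library and *Gata1* in every cKO library, while the level of both rose.

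*Mecom* to its relative *Prdm16*, which is also used by stem cells, was 0.506 ± 0.0823 in CTRL and 1.02 ± 0.138 in cKO (log2 difference 1.02). Both genes were scarce, and this difference was much smaller with 1 FPKM added before the ratio. *Prdm16* was below the limit, at 0.830 ± 0.129 FPKM in CTRL and 0.561 ± 0.0818 in cKO, and by voom on genes with at least 10 reads its log2 fold change was -0.54 (standard error 0.17, adjusted p = 0.0138). *Lmo2* to *Ldb1* was the 1 pair that overlapped, at 3.35 ± 0.0694 in CTRL and 3.37 ± 0.0228 in cKO (log2 difference 0.0060, p = 0.8, exact permutation test), and turned to -0.010 without CTRL replicate 1. *Ldb1* itself rose from 87.5 ± 1.02 FPKM to 95.9 ± 1.67, by 0.13 on the log2 scale (adjusted p = 0.00714, limma).

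**Figure D3:**
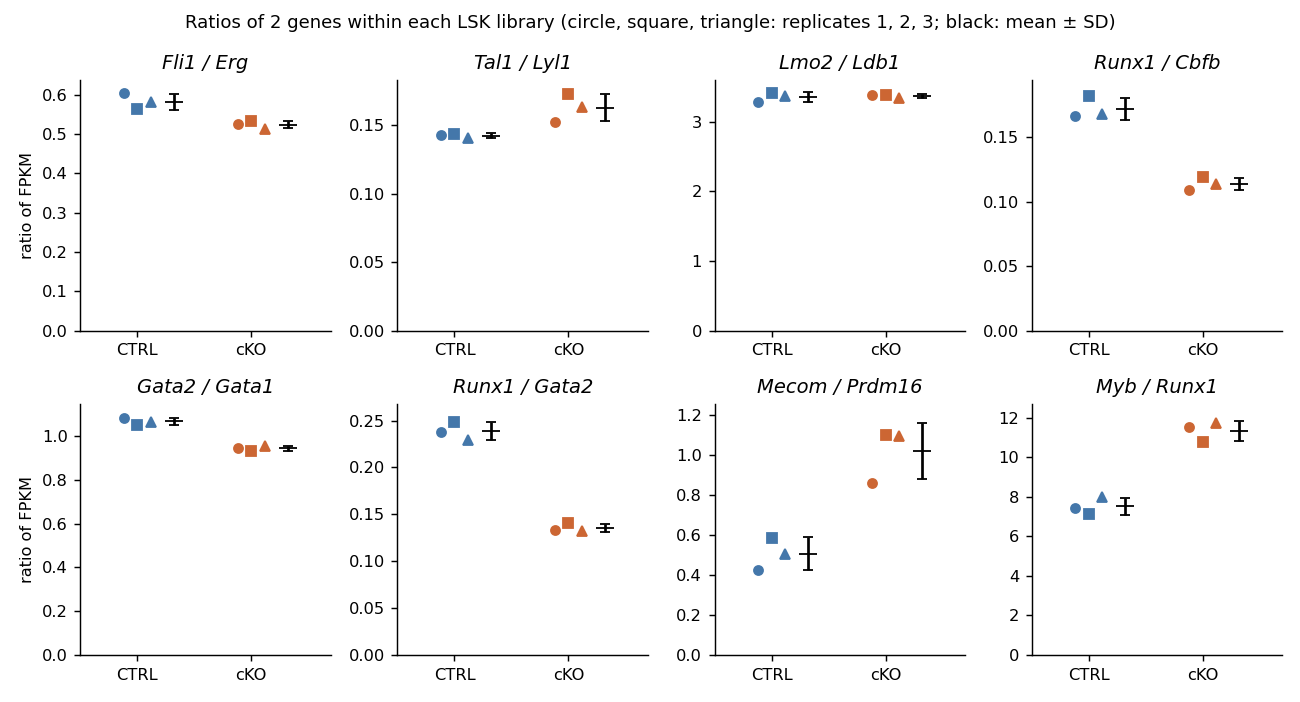
Ratio of the FPKM of 2 genes within each library (vertical axes, starting at 0) for 8 pairs, with replicates as separate symbols and the mean ± SD in black. *Runx1* to *Cbfb* and *Runx1* to *Gata2* are lower in every cKO library, *Mecom* to *Prdm16* is higher in every cKO library, and *Lmo2* to *Ldb1* overlaps at 3.28 to 3.42 in CTRL and 3.34 to 3.38 in cKO.

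Of 18 cofactors that join the heptad proteins on DNA or act with them, 17 were tested. Of these, 4 rose and 3 fell, close to the shares over all genes tested (19.9% higher and 20.6% lower). Their median log2 fold change was -0.040 beside -0.0096 for all genes tested. *Hdac1*, a histone deacetylase, rose from 34.2 ± 0.541 FPKM to 40.1 ± 0.442, by 0.23 on the log2 scale (adjusted p = 0.00103, limma). *Zfpm1* (FOG1), which binds GATA factors, rose by 0.20 (adjusted p = 0.0194) and *Ssbp2*, which steadies LDB1, by 0.18 (adjusted p = 0.0437). The corepressors *Cbfa2t2* (-0.25, adjusted p = 0.0258), *Rcor1* (-0.24, adjusted p = 0.00601) and *Sin3a* (-0.15, adjusted p = 0.0199) fell. The E protein gene *Tcf3* measured 55.9 ± 1.05 FPKM in CTRL and 56.2 ± 1.04 in cKO (log2 fold change 0.0076, adjusted p = 0.851). *Hdac1*, *Ldb1* and *Rcor1* were called in all 6 fits that left out 1 library, *Zfpm1* and *Sin3a* in 2 and *Ssbp2* and *Cbfa2t2* in 1. The count of cofactors higher was 2 without CTRL replicate 1, CTRL replicate 2, cKO replicate 1 or cKO replicate 2, and the count lower was 1 without CTRL replicate 1, cKO replicate 2 or cKO replicate 3.

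The Id proteins hold E proteins away from partners such as TAL1 and LYL1, and their genes moved in both directions. *Id2* measured 3.51, 2.65 and 3.65 FPKM in CTRL and 8.74, 9.02 and 9.76 FPKM in cKO, a rise of 1.26 on the log2 scale (standard error 0.099, adjusted p = 1.8e-04, limma). *Id3* measured 2.84, 3.33 and 3.05 FPKM in CTRL and 1.10, 1.22 and 0.840 FPKM in cKO, a log2 fold change of -0.99 (adjusted p = 3.9e-04). Both changes were larger than that of any of the 9 heptad and partner genes tested. *Id1*, the most abundant, measured 15.1 ± 1.80 and 13.5 ± 0.112 FPKM (adjusted p = 0.189), and was called lower without CTRL replicate 1.

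Of 19 relatives of the 10 genes, 13 were tested, 2 rose and 6 fell, with a median log2 fold change of -0.16. For comparison, 19.9% of all genes tested were called higher and 20.6% lower. Among tested genes annotated as transcription factors, 7.0% were higher and 31.5% lower. The rises were those of *Ets1* (0.41, adjusted p = 0.00958), which was scarce at 1.04 FPKM in CTRL and 1.70 in cKO, and of *Gata1*, from 33.0 ± 0.620 to 42.4 ± 1.06 FPKM (0.35, adjusted p = 2.9e-04, limma). The largest falls were in ETS genes. *Spi1* (PU.1), which directs myeloid and lymphoid fates, measured 107 FPKM in CTRL and 84.6 in cKO without overlap (-0.34, adjusted p = 1.8e-04), and *Elf4* (-0.32, adjusted p = 0.00188) and *Elf1* (-0.32, adjusted p = 0.00101) followed. *Runx3* also fell (-0.16, adjusted p = 0.0241), while *Runx2* did not pass the threshold (-0.16, adjusted p = 0.0923). The count of relatives lower was 3 without CTRL replicate 2, CTRL replicate 3, cKO replicate 1 or cKO replicate 2, and *Runx3* was called in 2 of the 6 fits that left out 1 library.

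Of 14 genes known to be bound by heptad factors in blood progenitors, 13 were tested, 4 rose and 3 fell, with a median of 0.048. The shares over all genes tested were 19.9% higher and 20.6% lower, so these counts set the bound genes little apart. The largest rises were in *Itga2b* (CD41), from 17.0 ± 0.524 FPKM to 37.3 ± 0.470 (1.09 on the log2 scale, adjusted p = 4.5e-06, limma), and in *Gfi1b*, a repressor needed for erythroid and megakaryocyte cells, from 30.3 ± 1.26 to 55.9 ± 2.14 FPKM (0.86, adjusted p = 2.8e-05). The study also names *Itga2b* as higher from these libraries, so its direction is not independent evidence either. *Spi1*, *Kit* (-0.14, adjusted p = 0.0105) and *Gfi1* (-0.12, adjusted p = 0.0151) fell. The call of *Gfi1* was lost without CTRL replicate 2 (adjusted p = 0.0523), and that of *Kit* with GC and length trends removed (adjusted p = 0.101).

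**Figure D4:**
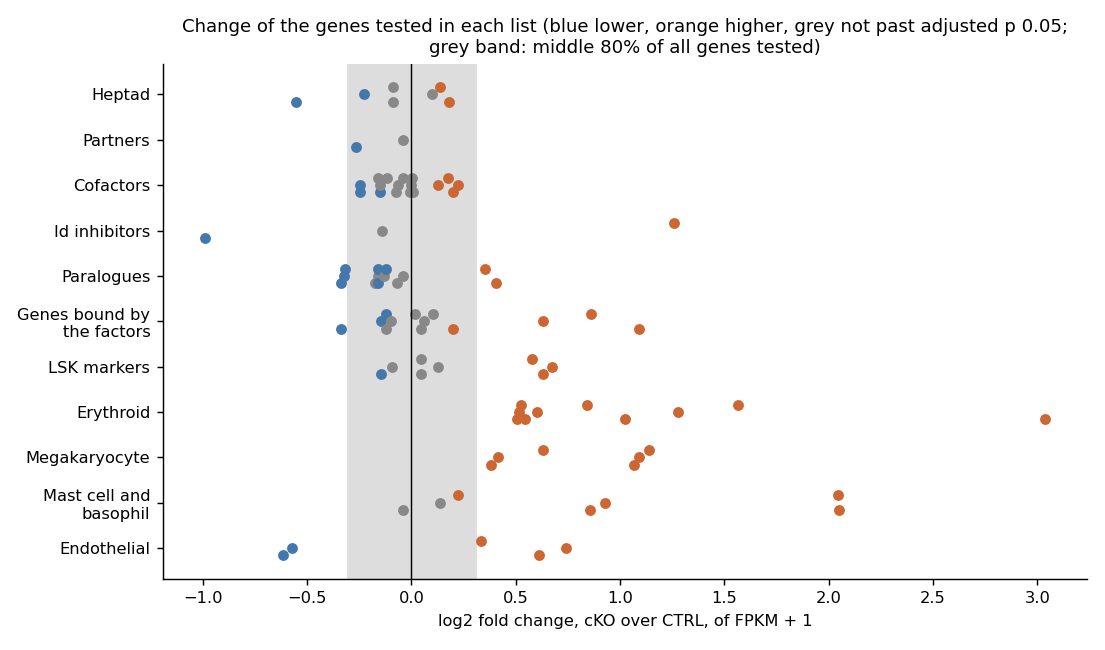
Log2 fold change (cKO over CTRL, horizontal axis, on log2(FPKM + 1)) of each gene tested in the heptad, its partners and 9 other lists, with called genes in colour. The grey band spans the 10th to the 90th percentile of all genes tested, -0.30 to 0.31, and of the heptad and partners only *Runx1* lies outside it, whereas all 10 erythroid genes lie above it.

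Markers of other blood lineages were mostly higher in cKO in these libraries, where 19.9% of all genes tested were called higher. The summed level of 12 erythroid markers was 442 to 445 FPKM in CTRL and 793 to 819 in cKO. Most of this sum came from *Car1*, with a mean of 344 FPKM in CTRL and 618 in cKO. All 10 markers tested rose (median log2 fold change 0.72), led by *Hbb-bt* (3.04), *Cldn13* (1.56) and *Hba-a1* (1.28), while *Slc4a1* and *Alas2* had means below 0.1 FPKM in both groups. The sum of 10 megakaryocyte markers was 83.7 to 87.8 FPKM in CTRL and 162 to 170 in cKO, and all 6 tested rose (median 0.85), *Gp9* (1.14), *Itga2b* and *Pf4* (1.07) most, with *Gp1bb* at 0 throughout. The sum of 7 mast cell and basophil markers was 108 to 120 FPKM in CTRL and 165 to 175 in cKO, and 5 of 7 rose (median 0.85), *Prss34* (2.05), *Cma1* (2.04) and *Mcpt8* (0.93) most. *Gata2*, *Gata1*, *Tal1* and *Lmo2* are also expressed in these lineages, and the part of these cells in the results was not tested. Nor was it tested whether the marker transcripts came from LSK cells themselves.

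Markers of the LSK fraction went both ways. Of 8 tested, 3 rose, *Procr* (0.67, adjusted p = 0.00145) and *Flt3* (0.58, adjusted p = 1.5e-04) among them, *Kit* fell and 4 did not pass the threshold (limma, median log2 fold change 0.088). The shares over all genes tested were 19.9% higher and 20.6% lower. *Procr* marks immature stem cells and *Flt3* multipotent progenitors. Endothelial cells also use *Erg*, *Fli1*, *Tal1* and *Lmo2*. The sum of 8 endothelial markers was 47.9 to 49.9 FPKM in CTRL and 54.0 to 58.3 in cKO, with *Egfl7* (0.74), *Esam* (0.61) and *Tie1* (0.33) higher and *Pecam1* (-0.62) and *Plvap* (-0.57) lower, while the defining markers *Cdh5* and *Kdr* were at 0 to 0.0913 FPKM in the 6 libraries. Blood stem cells also express several of these genes.

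The genes whose values most resembled those of *Runx1* over the 6 libraries, by Euclidean distance on log2(FPKM + 1), were *Vwa5a* (distance 0.111), *Plxnd1* (0.149) and *Ugdh* (0.151). *Vwa5a* measured 8.56 FPKM in CTRL and 5.32 in cKO. For *Gata2* they were *Eif2b5* (0.0827), *Hdac1* (0.0883) and *Tra2b* (0.0924), and *Eif2b5* measured 35.5 FPKM in CTRL and 40.1 in cKO. This measure reads level and change together.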

How the data were processed

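RNA-seq of 6 LSK libraries (3 CTRL, 3 cKO) was used, with groups taken from the sample descriptions. The authors deposited FPKM values with gene lengths for 54532 genes. The submitters' processing notes name HISAT2 2.0.5 and mm10; the counting program and whether it used strand are not given in the sources used here, so reads of a gene and its antisense partner cannot be told apart. A TruSeq kit was used. The deposited lengths equal the exon unions of GENCODE M21 (GRCm38) for all 10 genes, and 54409 identifiers were in that release. FPKM times length gave whole reads for 100% of values (within 0.02), which were used for depth and for voom. No molecular identifiers were used.

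The 11552 genes averaging 1 FPKM or more were tested on log2(FPKM + 1) in R 4.3.3 with limma 3.58.1 (lmFit, then eBayes with its trend option). Tests were two-sided, with the Benjamini-Hochberg adjustment taken over all genes tested. Adding 1 understates the change of low genes. All fold changes are cKO over CTRL on this scale. The test was also run on simulated data in which far fewer genes changed than were called here, so that run does not vouch for this setting. Within-library ratios were tested by exact permutation over 20 splits. Alternatives were a pseudocount of 0.1, no limit or 5 FPKM, median of ratios, quantile normalization, equal sums, no trend, a replicate block, voom on the reads, removal of trends with GC content and length, and leaving out each library. Voom on genes with at least 10 reads was added after seeing the data.

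The 10 genes and all lists (cofactors, Id inhibitors, relatives, bound genes and markers of LSK, mature lineage, erythroid, megakaryocyte, mast cell and basophil, and endothelial cells) were chosen with earlier results of these data known. Lists share genes (such as *Spi1*, *Zfpm1*, *Kit*, *Cd34* and *Itga2b*). Named genes were the 10, *Myh9*, at most 3 called in each direction per list by size, both genes of each pair, and the 3 nearest genes of *Runx1* and *Gata2*. Others (*Tcf3*, *Id1*, *Runx2*, *Runx3*, *Elk3*, *Etv5*, *Ly6a*, *Car1*, antisense genes and markers near 0) were named after their values were seen. Some list members are not reported here. Python 3.11.15, pandas 2.3.3, numpy 2.4.6, scipy 1.17.1, matplotlib 3.10.9 and the R package data.table (version 1.17.8) were also used.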

Additional observations from a re-analysis of the deposited data

How the results depend on the processing

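The calls of *Runx1*, *Fli1*, *Etv6* and *Gata2* held in all 17 alternatives. Of the heptad and partners, the count higher was 1 after quantile normalization and 4 by voom on genes with at least 10 reads, and the count lower was 6 after quantile normalization and 5 with equal sums. With a mean of at least 5 FPKM, 0 Id genes were lower (*Id3* was not tested there) and 1 relative was higher. With GC and length trends removed, 1 cofactor, 2 Id genes and 3 relatives were lower, and *Myb* turned to 0.038. Over the fits that left out 1 library, cofactors higher were 2 to 4 and lower 1 to 3, Id genes lower 1 to 2, and relatives lower 3 to 5. The log2 difference of *Lmo2* to *Ldb1* ranged from -0.010 to 0.020 in these fits. With 1 FPKM added before the ratio, the log2 differences were -0.51 for *Runx1* to *Cbfb*, -0.73 for *Runx1* to *Gata2*, 0.37 for *Mecom* to *Prdm16* and 0.51 for *Myb* to *Runx1*, since the added value weighs most on scarce genes. The cause of the other shifts was not tested. The median of all genes moved by less than 0.1 between scalings (-0.028 to 0.0011). Labels give both groups the same replicate numbers, but deviations of same-numbered libraries were not correlated (r = -0.0046, -0.011 and -0.026 across genes), so the numbers were not taken as pairs. With a replicate block, 2063 genes were higher and 2044 lower (2295 and 2378 without), and 2 of the heptad and partners were higher and 3 lower, as without it. *Mecom*, with 86 to 134 reads per library, is limited by depth, and the 3 libraries per group limit every p.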

Other observations

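The deposited table also gives a transcription factor family for 1469 genes, which was looked at after the values were seen. Of the 686 tested, 48 were higher and 216 (31.5%) lower in cKO, with a median log2 fold change of -0.11, beside 19.9% higher and 20.6% lower over all genes tested. Of the 16 ETS genes tested, 8 were lower and 2 higher, and without *Fli1*, *Erg* and *Etv6* these were 6 and 2 of 13. The largest ETS fall was in *Elk3*, a repressor, from 14.1 FPKM to 10.5 (-0.40 on the log2 scale, adjusted p = 5.9e-04, limma), and the largest rise in *Etv5*, from 2.33 to 4.37 FPKM (0.69, adjusted p = 0.00203). In the GATA zinc finger family 4 of 8 were higher and 1 lower, in the helix-loop-helix family 3 of 34 were higher and 12 lower, and in the MYB domain family 3 of 21 were higher and 5 lower. No enrichment test was run on these families.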
